A study of Mus musculus with 28 samples.

Results

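Solute carriers are the membrane proteins that move amino acids, sugars, metals, nucleosides, lipids and mitochondrial metabolites across the plasma membrane and the membranes of organelles, and their levels were followed here in mouse yolk sac macrophages (YSM) and in microglia, the resident macrophages of the brain, from midgestation to the adult. The genes were taken by name, as every symbol made of Slc, a family number, the letter a and a member number, with Slc2a1, Slc2a5, Slc4a1 and Slc1a3 left out. Of 323 such symbols on the array, 178 had a probe detected (detection p-value under 0.01) on at least 3 arrays and were kept, among 10630 genes kept in all. Of the 178, 173 are carriers and 5 only share the name (Slc7a6os, Slc9a3r1, Slc9a3r2, Slc4a1ap and the pseudogene Slc2a4rg-ps). The 145 symbols not kept were detected on 2 arrays (9 symbols), on 1 array (17) or on none (119). Just inside the limit, on exactly 3 arrays, stood Slc16a3, Slc25a4, Slc2a10, Slc38a4, Slc5a10, Slc6a11 and Slc7a9, whose highest array ranged from a log2 signal of 6.1 for Slc6a11 to 9.3 for Slc7a9. Just outside, on 2 arrays, stood 9 symbols whose highest array ranged from 5.99 for Slc2a13 to 8.52 for Slc39a5. A gene kept through a single stage had to be high there, so counts are also given for the 98 members detected on every array.

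The samples were pools of cells from several animals of either sex, of the strain written C56BL/6 in the labels and C57BL/6j in the study's methods, with the microglia columns marked WT, so that the spread between arrays is a spread between pools. YSM came from embryonic day E10.5 (4 arrays). Microglia were collected at the same day and every 2 days from E12.5 to E18.5, from newborns (P0), and from adults of 2 months (3 distinct arrays per stage). Per the study's methods the microglia were sorted as CD45low CD11b+ F4/80+ CD64+ Ly6C- cells, the adult brains passed through a Percoll gradient, and newborn and adult tissue was digested for longer, so that the adult stage and its preparation cannot be told apart. The 6 adult columns were 3 pairs of identical values and were counted as 3 arrays, which leaves 25 distinct arrays in 8 groups. A level below is a background-corrected, quantile-normalized log2 signal of 1 probe per gene, which can be set against the same gene on other arrays but not against another gene. A gene is called where limma's adjusted p (Benjamini-Hochberg over all 10630 genes) is under 0.05, and a difference is given as log2 ± SE.

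Carriers of the SLC class work without hydrolysing ATP themselves, either down a gradient (glucose through the Slc2 family, nucleosides through Slc29) or coupled to a sodium, proton or chloride gradient or to the exchange of a second solute. A macrophage relies on them at the plasma membrane, where it takes up fuel and amino acids, and in the endosome and lysosome, from which it recovers the nucleosides, amino acids, haem, iron and vitamins of what it has engulfed. At the inner mitochondrial membrane the Slc25 family exchanges nucleotides, phosphate and metabolites with the cytosol. Microglia are also macrophages that have to recycle iron, for which ferroportin (Slc40a1) is the known exporter.

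The arrays differed in depth and purity, and depth differed between stages. The ratio of the upper-quartile signal to background was 1.812 to 1.894 at E10.5 and 1.877 to 2.071 at E12.5. It was 1.825 to 2.156 at E14.5 and 2.97 to 3.371 at E16.5. At P0 it was 2.833 to 3.795, and in the adult 2.276 to 2.465. Stage and depth therefore cannot be told apart at E16.5 against E14.5 or in the adult against P0. Tissue and background signal cannot be told apart in E10.5 microglia against YSM (115.4 to 136.2 against 60.8 to 69.01). The part of depth or background signal in the calls at these steps was not tested. Between 119 and 154 members were detected per array, background signal was 101 to 144.9 on microglia arrays against 60.8 to 69.01 on YSM arrays, and all 15 measured microglia and macrophage markers were detected on every array. Transcripts of other cells were present on some: the mean log2 signal of 11 yolk sac endoderm genes was 10.67, 8.35 and 8.92 on YSM arrays 2, 3 and 4 against 5.71 on YSM array 1, and that of 11 neuronal genes was 6.33 to 9.39 on arrays from E12.5 to P0 against 5.27 to 5.82 on all others. The mean of 8 neutrophil and monocyte genes was 8.75 to 9.44 in YSM and 8.13 to 9.5 at E10.5. It was 8.18 on E12.5 array 1 and 8.21 on E14.5 array 1, against 4.78 to 5.55 on all other arrays. Without those 2 arrays, 28 members were higher and 16 lower at E12.5 against E10.5, where 1299 and 1488 of all genes were. The part of this list in falls from E10.5 was not tested beyond this. Members that moved with the endoderm or neuronal list are described apart below, each beside the list's values. In such pooled samples fewer cells of a type and less RNA per cell cannot be told apart.

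The members differed between stages about as often as other genes did. By limma's moderated F test over the 8 groups, 164 of 178 members were called (92.1%), where 91% of all genes were, and 94 of the 98 detected everywhere. The 14 that did not pass included Slc25a11, the mitochondrial 2-oxoglutarate carrier, Slc27a4, a fatty acid transport protein, Slc20a1, a sodium-phosphate carrier, and Slc6a9, a glycine carrier. Among the 164, the highest mean fell in YSM for 42 (of all called genes, 26.4%), at E10.5 for 11 (14.7%), at E12.5 for 4 (4.3%), at E14.5 for 14 (8.68%), at E16.5 for 10 (6.2%), at E18.5 for 6 (6.36%), at P0 for 27 (6.76%) and in the adult for 50 (26.5%), given without a test.

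Between neighbouring stages most calls fell at the same steps among the members as among all genes. In E10.5 microglia against YSM, 11 members were higher and 34 lower, where 10% and 9.51% of all genes were called in those directions. At E12.5 against E10.5, 38 were higher and 17 lower (21.3% and 9.55% of the members), where 1537 of all 10630 genes were higher and 1725 lower, together 30.7%. At E14.5 against E12.5, 1 was higher, Slc12a2, and 0 were lower (background 0.875% and 0.508%), with 36 members at an unadjusted p under 0.05. At E16.5 against E14.5, 29 were higher and 24 lower (background 12.9% and 20%). At E18.5 against E16.5, 1 was higher (Slc25a18) and 2 were lower (Slc26a3 and Slc25a33; background 1.37% and 0.95%), and at P0 against E18.5 limma called 0 members (background 0.047% higher and 0.00941% lower), with 14 at an unadjusted p under 0.05. In the adult against P0, 39 were higher and 50 lower (background 24.2% and 26.9%). Over the whole span, in the adult against E10.5, 73 members were higher and 43 lower (background 30.6% and 35.6%), or 44 and 30 of the 98 detected everywhere.

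The balance between the directions depended on the scaling of the arrays. Scaled to each array's 75th percentile in place of quantile normalization, the counts higher and lower were 27 and 27 at E12.5 against E10.5, 18 and 30 at E16.5 against E14.5, 2 and 0 at E18.5 against E16.5, 45 and 36 in the adult against P0, and 57 and 54 in the adult against E10.5. That scaling also moved the median of all genes, which was -0.18, -0.29, -0.04, 0.11 and -0.38 in those comparisons against -0.01, -0.08, 0.01, -0.03 and -0.09 after quantile normalization. The members' median in the adult against E10.5 lay above the median of all genes by either scaling, at 0.27 after quantile normalization and 0.05 after 75th percentile scaling.

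**Figure D1:**
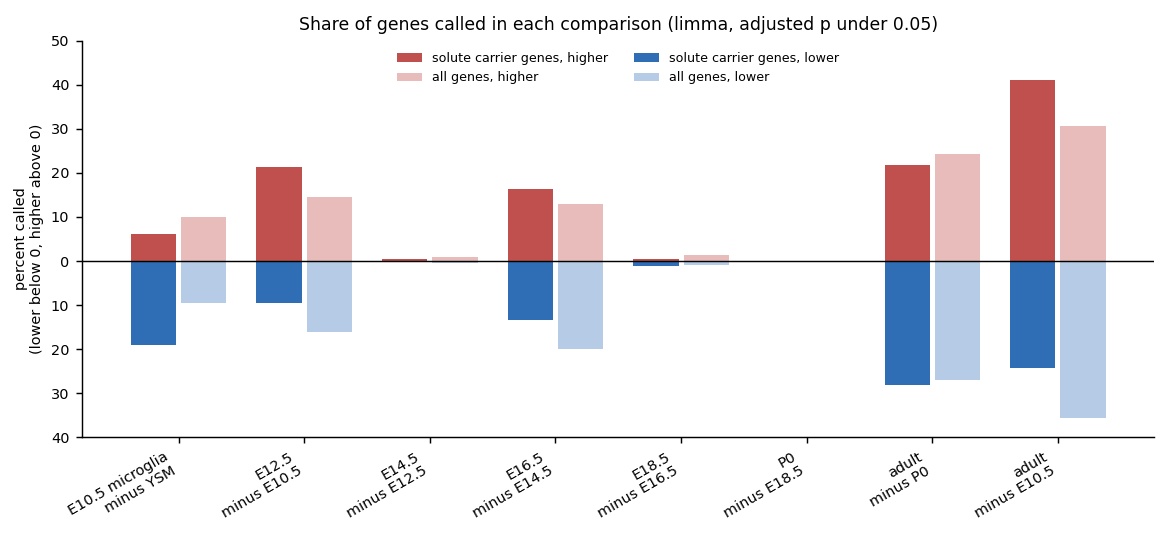
Percent of genes called by limma in each comparison (y axis, higher above 0 and lower below it), for the 178 solute carrier genes (dark bars) and for all 10630 genes (pale bars). The dark bars reach 41% higher in the adult against E10.5, where 30.6% of all genes were higher, and 19.1% lower in E10.5 microglia against YSM, where 9.51% were lower.

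The nucleoside carriers held the largest rise over the whole span among members detected everywhere. Slc29a3, the equilibrative nucleoside transporter of lysosomes, which lets nucleosides from degraded nucleic acids return to the cytosol and whose loss in humans causes a histiocytosis, had log2 signals of 13.34, 13.44 and 13.67 in adult microglia against 10.09, 10.04 and 10.42 at E10.5. Its stage means were 9.79 in YSM, then 10.18, 10.82, 11.26, 11.92, 12.1, 12.2 and 13.49 from E10.5 to the adult. The compared arrays did not overlap in any of the 3 neighbouring comparisons in which the gene was called, E12.5 against E10.5 (0.63 ± 0.16), E16.5 against E14.5 (0.66 ± 0.16) and the adult against P0 (1.29 ± 0.16). The adult exceeded E10.5 by 3.30 ± 0.16, a 9.87-fold difference (adjusted p = 3.91e-13). Slc29a1, the plasma membrane equilibrative carrier, rose at E16.5, with 11.59, 11.7 and 11.59 against 10.82, 10.7 and 10.76 at E14.5 (0.86 ± 0.18, adjusted p = 0.0013) and no overlap. Its second probe, detected on 14 arrays, gave 0.21 for that step (adjusted p = 0.623). Slc35a5, a nucleotide sugar transporter by family, was a late riser, with 9.31, 9.19 and 8.77 in the adult against 7.37, 7.59 and 7.44 at P0 (1.62 ± 0.26, adjusted p = 2.83e-05), and again the groups were apart. Slc35a4, a member of the same family, went the other way, with 10.04, 10.1 and 10.32 in the adult against 11.3, 11.45 and 11.34 at E10.5 (-1.21 ± 0.11, adjusted p = 7.16e-09). Slc35a1 and Slc35a3, the Golgi carriers of CMP-sialic acid and UDP-N-acetylglucosamine, differed at the first step. Slc35a3 had 8.6, 8.52 and 7.8 in E10.5 microglia against 7.33, 7.41, 6.81 and 6.99 in YSM (1.17 ± 0.19, adjusted p = 0.000462). Slc35a1 had 7.05, 7.24 and 6.96 in E10.5 microglia against 6, 5.75, 4.72 and 6.5 in YSM, at least 1.78-fold since it was not above background in YSM (adjusted p = 0.00532). A difference against a group in which no array detected the gene is given here and below as such a bound, set on each array of that group against the higher of the gene's own signal and the lowest detected signal. In all, 4 of the 9 members of this class were higher in the adult than at E10.5 and 1 was lower (background 30.6% and 35.6%).

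The promoters of 3 of the 4 members of that class that were higher in the adult than at E10.5 are shown. These 3 rose by different steps. Their start regions differ in the motif CACGTG, the core sequence bound by the lysosomal regulators TFEB and TFE3 and by other E-box factors. The windows run from 250 bases before to 50 after the gene start (RefSeq, build GRCm38.p6, minus strand for all 3), in lower case with CACGTG in capitals, a motif that reads the same on both strands. They lie at chr10:60752733-60753032 for Slc29a3, chr16:45158624-45158923 for Slc35a5 and chr17:45595197-45595496 for Slc29a1. Slc29a1 has 8 such windows, and the first found to hold the motif is printed. Slc29a3 has 1 window, so that the difference between these 2 genes partly follows from that choice.
Slc29a3: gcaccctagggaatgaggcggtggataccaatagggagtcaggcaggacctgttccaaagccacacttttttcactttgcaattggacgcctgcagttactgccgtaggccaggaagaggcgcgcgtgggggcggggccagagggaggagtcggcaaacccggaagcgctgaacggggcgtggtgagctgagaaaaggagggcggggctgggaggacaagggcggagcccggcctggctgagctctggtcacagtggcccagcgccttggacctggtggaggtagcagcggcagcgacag
Slc35a5: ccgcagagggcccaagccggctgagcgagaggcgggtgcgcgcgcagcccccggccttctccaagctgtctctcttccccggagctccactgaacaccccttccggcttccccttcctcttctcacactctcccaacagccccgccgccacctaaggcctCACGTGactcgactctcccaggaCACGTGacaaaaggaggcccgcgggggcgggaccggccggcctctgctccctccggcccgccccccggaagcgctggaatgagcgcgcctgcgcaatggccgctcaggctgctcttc
Slc29a1: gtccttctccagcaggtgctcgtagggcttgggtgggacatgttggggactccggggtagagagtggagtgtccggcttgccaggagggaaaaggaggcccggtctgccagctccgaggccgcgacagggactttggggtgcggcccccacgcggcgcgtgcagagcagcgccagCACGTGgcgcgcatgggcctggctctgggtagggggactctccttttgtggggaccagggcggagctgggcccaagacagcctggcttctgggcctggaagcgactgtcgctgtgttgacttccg
The motif stood 90 bases before the start in Slc35a5, where a second copy follows, and 75 bases before it in Slc29a1, and these letters were not in the Slc29a3 window. Of the 191 windows of the 142 members matched by symbol, 28 (14.7%) held it, against 7.15% of all 32851 windows, a description without a test. The members were kept as detected here, while the full set of windows was not limited to detected genes, so the sets are unlike. Besides Slc35a5 and Slc29a1, the 26 members holding CACGTG included Slc27a1, Slc25a36 and Slc43a1. GAGGAAGT, a site letter sequence for PU.1, was in 4 member windows (2.09%, against 3.2% of all), and TGAGTCA, for AP-1, in 5 (2.62%, against 5.2%). Both strands were searched for each motif.

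Among the carriers of vitamins, peptides and lipids, the lysosomal Slc46a3 and Slc15a3 and the folate carrier Slc46a1 were higher in the adult than at E10.5. Slc46a1, the proton-coupled folate carrier, which has also been described as a haem carrier, had 10.28, 10.32 and 11.03 in adult microglia against 7.32, 7.6 and 7.66 at E10.5. It was called at E12.5 against E10.5 (1.13 ± 0.19), at E16.5 against E14.5 (0.83 ± 0.19) and in the adult against P0 (0.9 ± 0.19), and its arrays did not overlap in any of these. The whole rise was 3.02 ± 0.19 (8.08-fold, adjusted p = 1.57e-11). Its relative Slc46a3, a lysosomal carrier, had 13.13, 13.16 and 14.06 in the adult against 12.04, 12.12 and 12.23 at E10.5 (1.32 ± 0.2, adjusted p = 6.34e-06). Slc46a3 was already higher in E10.5 microglia than in YSM (0.55 ± 0.19, adjusted p = 0.0419), a call lost in 11 of 38 other settings. Slc15a3, a lysosomal histidine and peptide carrier that also passes bacterial muramyl dipeptide, made its largest step at E16.5, with 12.48, 12.4 and 12.45 against 11.58, 11.24 and 11.36 at E14.5 (1.05 ± 0.17, adjusted p = 0.000223). The other lysosomal peptide carrier, Slc15a4, was lower at E12.5 than at E10.5 (-0.69 ± 0.22, adjusted p = 0.0239).

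The choline carriers of the Slc44 family parted in time. Slc44a1 had 10.02, 10.33 and 10.36 at E12.5 against 9.33, 9.33 and 9.57 at E10.5 (0.83 ± 0.14, adjusted p = 0.000208), and was then lower in the adult than at P0 (-0.41 ± 0.14, adjusted p = 0.02). Slc44a2 had 13.91, 13.92 and 13.77 in the adult against 12.75, 12.54 and 12.76 at P0 (1.18 ± 0.15, adjusted p = 1.64e-06). The groups were apart in both cases, and the difference between the 2 genes was not tested. Slc27a1, which brings long-chain fatty acids into the cell, had the shape of an arch, with means of 7.62 in YSM and 7.22, 8.46, 9.09, 9.75, 9.26, 9.42 and 7.81 from E10.5 to the adult. Its adult arrays (7.54, 7.96 and 7.92) lay below all P0 arrays (9.34, 9.63 and 9.29), a fall of 1.62 ± 0.2 on the log2 scale (adjusted p = 1.34e-06). Slc19a1, the reduced folate carrier, was lower at E12.5 than at E10.5 (-0.72 ± 0.16, adjusted p = 0.00185), the step at which the folate carrier Slc46a1 rose. Slc44a4, another choline-like carrier, was at least 1.47-fold lower at E12.5 than at E10.5 (means of 5.64 and 6.68, adjusted p = 0.000587). In this class 8 of 17 members were higher in the adult than at E10.5 and 3 were lower (background 30.6% and 35.6%).

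The ion carriers held the member with the smallest F-test p, Slc12a2. This sodium-potassium-chloride cotransporter, the target of the diuretic bumetanide, loads cells with chloride. Its probe (ILMN_2700059) gave 10.61, 10.44, 10.62 and 10.95 in YSM, a mean of 10.53 at E10.5, 11.97, 12.04 and 12.23 at E12.5, 13.05, 12.94 and 12.91 at E14.5, 13.57, 13.46 and 13.4 at E16.5, 13.79, 13.76 and 13.49 at E18.5, 13.77, 13.92 and 13.48 at P0, and 13.85, 13.82 and 13.69 in the adult. Each stage from E12.5 to E16.5 lay wholly above the one before it. The steps were 1.55 ± 0.13 at E12.5 against E10.5 (adjusted p = 1.09e-07), 0.89 ± 0.13 at E14.5 against E12.5 (adjusted p = 0.000892) and 0.5 ± 0.13 at E16.5 against E14.5 (adjusted p = 0.00684). In the adult against P0 the difference was 0.07 ± 0.13. A second probe gave an adult against E10.5 difference of 3.56, where the first gave 3.26.

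Slc24a3, Slc8a1 and Slc9a9, exchangers of sodium with calcium or protons, also rose. Slc24a3, a potassium-dependent sodium-calcium exchanger, had 11.63, 11.62 and 11.62 in the adult against 8.75, 8.51 and 8.59 at E10.5, and took 1.25 ± 0.17 of its 3.01 ± 0.17 rise after P0 (adjusted p = 5.28e-06 and 4.19e-12). Slc8a1, a sodium-calcium exchanger, had 11.45, 11.44 and 11.42 at E12.5 against 10.63, 10.42 and 10.83 at E10.5 (0.81 ± 0.12, adjusted p = 4.46e-05), but 1 of its 2 other probes, detected on 5 arrays, gave -0.42 for the adult against E10.5 where the main probe gave 1.11. Slc9a9, a sodium-proton exchanger of endosomes, had 10.43, 10.26 and 10.56 at E12.5 against 8.42, 8.22 and 8.72 at E10.5 (1.96 ± 0.25, 3.90-fold, adjusted p = 1.12e-05). Its adult arrays (10.73, 10.08 and 10.98) overlapped with those of P0 (11.68, 11.47 and 10.65), though their means differed by -0.67 ± 0.25 (adjusted p = 0.0301). Slc26a3, a chloride-bicarbonate exchanger, was a late riser, with 7.39, 7.28 and 7.46 in the adult against 5.17, 5.16 and 6.12 at P0 (1.89 ± 0.26, adjusted p = 5.97e-06). It had been lower at E18.5, where it was not above background, than at E16.5, by at least 1.3-fold (means of 5.07 and 6.09, adjusted p = 0.0453), a call lost in 27 of 37 other settings (adjusted p of 0.00504 to 0.231). In the adult against E10.5, 12 of 22 ion carriers were higher and 1 was lower (background 30.6% and 35.6%), and 9 and 2 after 75th percentile scaling.

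**Figure D2:**
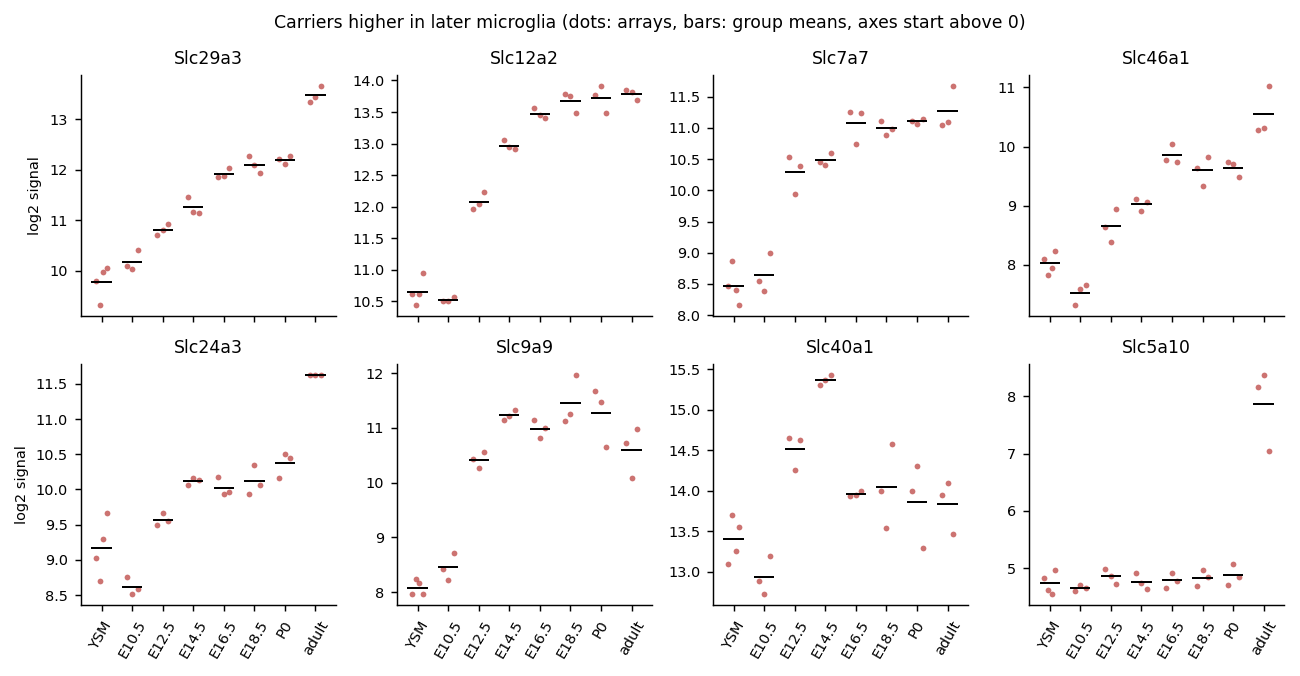
Log2 signal (y axis, each panel with its own range) of 8 carriers on every array, by stage (x axis). Dots are arrays and bars are group means. Slc12a2 climbs in steps from E10.5 to E16.5, Slc29a3 and Slc24a3 step up again in the adult, Slc40a1 peaks at E14.5 with 15.3, 15.36 and 15.43, and Slc5a10 leaves the background in the 3 adult arrays.

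Metal carriers followed several courses. Ferroportin (Slc40a1), the iron exporter, had 12.89, 12.72 and 13.19 at E10.5, 14.65, 14.25 and 14.63 at E12.5, 15.3, 15.36 and 15.43 at E14.5, and 13.93, 13.95 and 13.99 at E16.5. It rose by 1.58 ± 0.25 at E12.5 against E10.5 (adjusted p = 0.000108) and fell by 1.41 ± 0.25 at E16.5 against E14.5 (adjusted p = 0.000554). Every E14.5 array lay above every array of the other stages. Slc11a2, the proton-coupled importer of ferrous iron, was highest at the following stage, with 10.3, 10.43 and 10.51 at E16.5 against 8.77, 8.75 and 8.83 at E14.5 (1.63 ± 0.21, 3.10-fold, adjusted p = 6.0e-05). Its other probes gave 1.01 (detected on 12 arrays, adjusted p = 0.0162) and 0.01 (detected on 25, adjusted p = 0.975) for that step, so that the rise depended on the probe. Slc48a1, which carries haem out of the lysosome, had 10.47, 10.73 and 10.86 at E16.5 against 12.08, 11.77 and 11.91 at E14.5 (-1.23 ± 0.21, adjusted p = 0.000436). The mean of 9 erythroid genes was 7.44 to 8.71 at E10.5, 8 to 9.58 at E12.5, 7.16 to 7.52 at E14.5 and 6.53 to 6.68 at E16.5, and its part in these values was not tested.

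In the adult against P0, 7 of 25 metal carriers were higher and 7 were lower (background 24.2% and 26.9%). Slc25a37, mitoferrin-1, which brings iron into mitochondria for haem and iron-sulphur clusters, had 11.12, 11.45 and 12.49 in the adult against 9.67, 9.79 and 9.64 at P0 (1.99 ± 0.29, adjusted p = 1.05e-05), although it is a member of the mitochondrial class. A second probe of it, detected on 6 arrays, gave 0.59 for this step but -0.52 for the adult against E10.5, where the main probe gave 2.71. The mean of 9 erythroid genes was 6.59 to 6.8 in the adult and 6.12 to 6.26 at P0. Of these genes 2 were called higher in the adult and 1 lower, and their part in the Slc25a37 values was not tested. Slc11a1, the phagosomal metal carrier first known as Nramp1 for its role in resistance to intracellular bacteria, had 15.03, 15.11 and 14.65 in the adult against 14.09, 13.97 and 13.99 at P0 (0.91 ± 0.13, adjusted p = 1.13e-05). Its 3 other probes gave -0.11, 0.55 and 0.71 for this step, so that its direction depended on the probe. At this step 1 of the 2 copper carriers of the Slc31 family was higher and 1 lower, and of the 6 zinc carriers of the Slc30 family 2 were higher and 2 lower. Slc31a1, the copper importer, fell to 10.26, 10.34 and 10.38 in the adult against 11.79, 11.69 and 11.47 at P0 (-1.33 ± 0.13, adjusted p = 8.67e-08), and Slc30a1, the zinc exporter of the plasma membrane, to 7.83, 7.72 and 7.24 in the adult against 8.49, 8.5 and 8.21 at P0 (-0.8 ± 0.17, adjusted p = 0.000487).

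Of the 12 zinc importers of the Slc39 family, 6 were higher and 2 lower in the adult than at E10.5 (background 30.6% and 35.6%). Slc39a12 had 10.24, 10.28 and 9.98 in the adult against 8.91, 8.37 and 8.28 at P0 (1.65 ± 0.2, adjusted p = 1.4e-06), and an earlier peak, with means of 7.84 at E10.5, 9.41 at E12.5, 9.63 at E14.5 and 8.68 at E16.5. Slc39a4, the intestinal and yolk sac zinc importer mutated in acrodermatitis enteropathica, had 9.58, 9.5 and 9.47 in the adult against 7.03, 6.98 and 7.5 at P0 (2.34 ± 0.45, adjusted p = 0.0002). In YSM the same gene gave 6.79, 9.31, 7.33 and 8.38, highest on the array highest in endoderm transcripts. Slc39a8, an importer of zinc and manganese, rose at E12.5, to 7.13, 6.99 and 7.37 against 5.98, 5.95 and 6.05 at E10.5, where it was not above background on any array. The difference was at least 1.76-fold (adjusted p = 0.00348). Slc39a1 was lower at E16.5 than at E14.5, with overlapping arrays (6.46, 6.86 and 6.59 at E16.5 against 7.72, 7.7 and 6.82 at E14.5, -0.78 ± 0.27, adjusted p = 0.0347). This call was lost in 7 of 38 other settings (adjusted p of 0.0107 to 0.139). Slc39a14, the importer of non-transferrin-bound iron and of manganese, was not above background at E16.5 nor in the adult, and was at least 1.21-fold lower in the adult than at E10.5, with means of 5.24 and 6.42 (adjusted p = 1.19e-05).

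Sugar and monocarboxylate carriers held the largest fitted fall. Slc2a3, the high-affinity glucose transporter GLUT3, had 8.81, 9.06 and 8.49 in adult microglia against 11.77, 11.85 and 11.59 at E10.5 (-2.95 ± 0.13, 0.129-fold, adjusted p = 1.38e-13). Its means stepped down from 12.11 in YSM through 11.74, 10.94, 10.48, 9.6, 9.27 and 9.49 to 8.79 in the adult. It was called in 4 of the 7 neighbouring comparisons, E10.5 against YSM (-0.37 ± 0.13), E12.5 against E10.5 (-0.8 ± 0.13), E16.5 against E14.5 (-0.89 ± 0.13) and the adult against P0 (-0.71 ± 0.13), without overlap in any of them. Slc2a6, a lysosomal glucose carrier of macrophages, fell at E12.5, to 7.81, 8.21 and 8.43 against 10.07, 10.17 and 9.92 at E10.5 (-1.91 ± 0.38, adjusted p = 0.000775). Slc2a8, an intracellular glucose carrier, rose at E12.5 (0.39 ± 0.12, adjusted p = 0.0175) and again later, with 9.53, 9.31 and 9.45 at E16.5 against 9.01, 8.79 and 8.96 at E14.5 (0.51 ± 0.12, adjusted p = 0.00369). In the Slc2 family 3 of 5 members were lower in the adult than at E10.5 and 2 were higher (background 35.6% and 30.6%).

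Among the other members of this class, Slc37a2, a glucose 6-phosphate exchanger of the endoplasmic reticulum that is abundant in macrophages, had 9.45, 9.17 and 9.48 at E12.5 against 8.34, 8.33 and 8.4 at E10.5 (1.01 ± 0.15, adjusted p = 3.87e-05). Slc16a10, a carrier of aromatic amino acids, and Slc16a6, a carrier of ketone bodies, moved in opposite directions after birth. Slc16a10 had 7.24, 6.91 and 7.31 in the adult against 8.46, 8.19 and 7.84 at P0 (-1.01 ± 0.18, adjusted p = 0.000116). Slc16a6 had 11.76, 11.38 and 11.07 in the adult against 9.99, 10.13 and 9.96 at P0 (1.38 ± 0.22, adjusted p = 3.66e-05). Slc16a9, a carnitine carrier, had 8.2, 8.31 and 8.05 in the adult against 6.04, 6.36 and 7.19 at P0 (1.66 ± 0.31, adjusted p = 0.000189). Slc50a1, a sugar exporter, had 11.32, 11.27 and 10.57 in the adult against 9.79, 10.06 and 9.9 at P0 (1.14 ± 0.16, adjusted p = 9.21e-06). In these 3 risers all adult arrays stood above all P0 arrays. Slc16a13, a monocarboxylate carrier, had 7.87, 7.97 and 7.77 in E10.5 microglia against 8.55, 9, 8.91 and 9.05 in YSM (-1.01 ± 0.16, adjusted p = 0.000273).

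A pair of Slc5 members was higher in the adult than at P0. Slc5a10, a sodium-coupled sugar carrier known from the kidney, had 8.16, 8.38 and 7.05 in the adult, and 4.54 to 5.07 on the 22 arrays of all other groups, where it was not above background. The adult was at least 4.18-fold above P0 (adjusted p = 8.81e-10). Slc5a5, the iodide carrier of the thyroid, had 6.66, 6.98 and 6.61 in the adult against 4.92, 5.1 and 5.12 at P0, at least 1.92-fold (adjusted p = 6.08e-07). Both were kept because they were detected in the adult, so that a difference from the other stages was a condition of entry for Slc5a10. For Slc5a5, detected on 4 arrays in all, it was largely so. Slc5a6, the sodium-coupled carrier of biotin and pantothenate, fell early, with 10.48, 10.41 and 10.16 in E10.5 microglia against 10.74, 10.76, 10.98 and 11.08 in YSM (-0.54 ± 0.15, adjusted p = 0.0191), and again at E16.5 against E14.5 (-0.51 ± 0.17, adjusted p = 0.0235).

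Mitochondrial carriers (Slc25) were the one class of carriers with more members lower than higher over the whole span. Of the 31, 15 were lower and 9 higher (background 35.6% and 30.6%), and 17 and 4 after 75th percentile scaling. Their median difference in the adult against E10.5 was -0.38, against 0.27 over all members and -0.09 over all genes. The carriers that serve oxidative phosphorylation were among those lower. Slc25a5, an ADP/ATP exchanger (ANT2), had 13.81, 13.87 and 13.32 in the adult against 14.87, 14.92 and 14.72 at E10.5 (-1.17 ± 0.14, adjusted p = 2.32e-07). Slc25a3, the phosphate carrier, had 11.87, 11.77 and 11.75 in the adult against 12.56, 12.57 and 12.58 at P0 (-0.77 ± 0.14, adjusted p = 0.000146). The groups were apart in both genes. A second probe of Slc25a3 gave -0.11 for the adult against P0 and -0.97 for the adult against E10.5, so that its fall over the whole span rested on both probes and the postnatal step on 1.

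The aspartate-glutamate carriers and the ornithine carrier fell at E12.5. Slc25a12, the aspartate-glutamate carrier aralar, had 8.24, 8.05 and 8.18 at E12.5 against 9.5, 9.49 and 9.14 at E10.5 (-1.22 ± 0.15, adjusted p = 6.47e-06). Its paralogue Slc25a13, citrin, had 7.62, 7.79, 7.52 and 7.66 in YSM and 7.11, 7.51 and 6.5 at E10.5, and was not above background on any later array. It was at least 1.88-fold lower at E12.5 than at E10.5, with means of 5.84 and 7.04 (adjusted p = 0.000274). Slc25a15, the ornithine carrier, fell by 0.49 ± 0.17 on the log2 scale at E12.5 against E10.5 (adjusted p = 0.034), and had 7.26, 7.75 and 7.39 in the adult against 9.28, 9.25 and 9.08 at E10.5 (-1.73 ± 0.17, adjusted p = 1.51e-08). Slc25a26, which imports S-adenosylmethionine, fell by 0.94 ± 0.12 on the log2 scale over that span (adjusted p = 8.45e-07). Slc25a10, the dicarboxylate carrier, was lower after birth, with 6.67, 6.7 and 6.35 in the adult against 9.26, 9.19 and 9.04 at P0 (-2.59 ± 0.16, 0.166-fold, adjusted p = 6.76e-11).

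Other mitochondrial carriers rose. Slc25a36, a pyrimidine nucleotide carrier, had 9.06, 9.03 and 9.02 in E10.5 microglia against 7.7, 7.84, 7.01 and 7.78 in YSM (1.45 ± 0.21, adjusted p = 0.000189), and 10.09, 9.7 and 9.8 at E12.5. Its other probes, detected on 25 and 24 arrays, gave 0.08 and 0.13 for E10.5 microglia against YSM (adjusted p = 0.743 and 0.744), so that the difference at this step rested on 1 of 3 probes. Slc25a33, the other pyrimidine nucleotide carrier, had 7.35, 7.64 and 7.34 at E12.5 against 8.28, 8.27 and 8.04 at E10.5 (-0.75 ± 0.15, adjusted p = 0.000979) and 8.45, 8.53 and 8.16 at E16.5 against 7.45, 7.32 and 7.3 at E14.5 (1.02 ± 0.15, adjusted p = 0.00017). It was lower again at E18.5 (7.69, 7.81 and 7.87) than at E16.5 (-0.59 ± 0.15, adjusted p = 0.0462), a call lost in 24 of 38 other settings (adjusted p of 0.0319 to 0.196). The 2 carriers of one substrate class therefore moved in opposite directions at E12.5, each without overlap. Slc25a4, the ADP/ATP exchanger of heart and muscle (ANT1), had 5.27, 5.71 and 5.14 in E10.5 microglia, where it was not above background, against 7.66, 7.53, 7.94 and 6.6 in YSM, at least 2.12-fold lower (adjusted p = 6.07e-06). It was high on YSM array 1, where endoderm transcripts were low, and was not detected on any microglia array. It was kept through 3 YSM arrays alone, so that this difference was a condition of entry. Slc25a23, a calcium-dependent ATP-magnesium/phosphate carrier, was likewise lower, with 5.03, 5.36 and 5.91 in E10.5 microglia against 6.18, 6.23, 6.52 and 6.93 in YSM, at least 1.08-fold (adjusted p = 0.00231). Slc25a30 had 7.26, 7.19 and 6.58 in E10.5 microglia against 6.53, 5.93, 5.51 and 6 in YSM (1.02 ± 0.29, adjusted p = 0.0174). Slc25a16 had 8.6, 8.43 and 8.6 at E16.5 against 9.41, 9.5 and 9.79 at E14.5 (-1.02 ± 0.19, adjusted p = 0.000807).

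**Figure D3:**
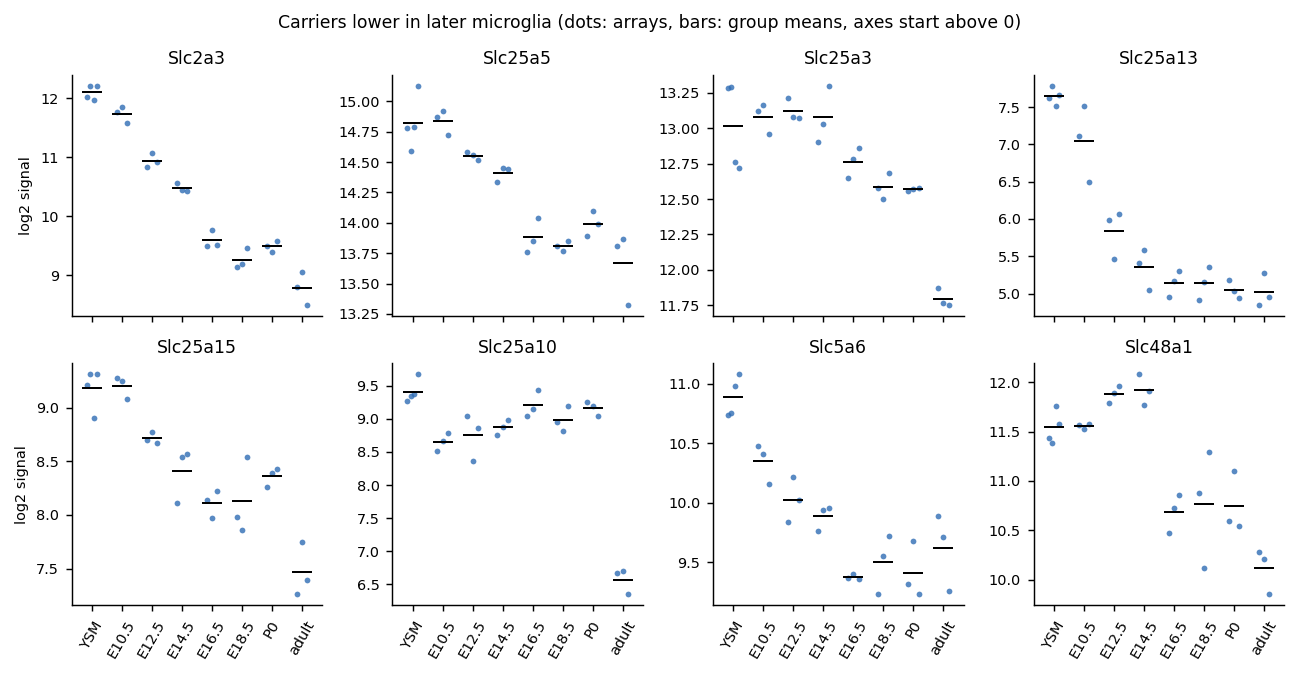
Log2 signal (y axis, each panel with its own range) of 8 carriers on every array, by stage (x axis). Dots are arrays and bars are group means. Slc2a3 steps down from 12.11 in YSM to 8.79 in the adult, Slc25a13 is not above background from E12.5 on, and Slc25a10 drops between P0 (9.16) and the adult (6.57).

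Among the 32 amino acid carriers, 13 were higher and 8 lower in the adult than at E10.5 (background 30.6% and 35.6%), and 9 and 9 after 75th percentile scaling. Slc7a7, the light chain of the exchanger y+LAT1 whose loss in humans causes lysinuric protein intolerance with macrophage disease, had 10.54, 9.94 and 10.39 at E12.5 against 8.55, 8.38 and 9.0 at E10.5 (1.65 ± 0.21, adjusted p = 9.15e-06) and 11.04, 11.1 and 11.68 in the adult (2.63 ± 0.21 above E10.5, adjusted p = 4.99e-10). A second probe detected on every array also rose at E12.5 (1.5, adjusted p = 3.11e-05), and one detected on 3 arrays gave 0.05 (adjusted p = 0.914). Slc7a8, the light chain LAT2 of a neutral amino acid exchanger, had 12.28, 11.94 and 12.11 at E12.5 against 11.1, 10.94 and 11.56 at E10.5 (0.91 ± 0.17, adjusted p = 0.000498). Both light chains need the heavy chain Slc3a2 (4F2hc, CD98) to reach the plasma membrane. Slc3a2 was called in none of the comparisons in which they rose. It had 8.22, 7.98 and 7.98 in E10.5 microglia against 9.11, 9.29, 9.76 and 8.67 in YSM (-1.15 ± 0.24, adjusted p = 0.00272), with means of 8.06 at E10.5, 8.07 at E12.5 and 8.04 in the adult. Slc7a6 (y+LAT2), the close relative of Slc7a7 with the same substrates, moved the other way at E12.5, with 7.37, 7.5 and 7.49 against 8.32, 8.52 and 8.15 at E10.5 (-0.88 ± 0.12, adjusted p = 2.9e-05). Slc7a11, the light chain of the cystine-glutamate exchanger xCT, had 6.41, 6.1 and 6.16 in the adult against 5.26, 5.46 and 5.37 at P0, where this probe was not above background, at least 1.34-fold (adjusted p = 0.00638). Slc7a5, the light chain LAT1, was not analysed here.

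The other amino acid carriers followed no common course. Slc6a8, the creatine carrier, had 7.32, 7.83 and 7.32 at E12.5 against 6.13, 5.66 and 5.98 at E10.5, where it was not above background, at least 2.21-fold (adjusted p = 0.00619). Slc1a4 (ASCT1), a carrier of serine and alanine, had 6.68, 7.08 and 7.22 at E16.5 against 6.33, 5.86 and 5.72 at E14.5 (1.03 ± 0.28, adjusted p = 0.00901), and Slc1a6, a glutamate carrier, was at least 1.09-fold lower in E10.5 microglia than in YSM (means of 5.36 and 6.47, adjusted p = 0.00783). Both stood apart from the arrays they were set against. Slc38a2 (SNAT2), the sodium-coupled carrier of small neutral amino acids, had 12.57, 12.59 and 12.26 at E16.5 against 11.08, 11.06 and 11.06 at E14.5 (1.4 ± 0.34, adjusted p = 0.00422), but its 2 other probes gave -0.26 and -0.12 for that step. In the adult against P0 it had 12.78, 12.81 and 12.48 against 11.11, 11.23 and 11.68 (1.35 ± 0.34, adjusted p = 0.00249), where the other probe detected on every array also rose (0.86, adjusted p = 0.000435). Slc38a1 (SNAT1) had 6.67, 7.19 and 6.43 in E10.5 microglia against 5.7, 5.73, 4.94 and 4.78 in YSM, where it was not above background, at least 1.43-fold (adjusted p = 0.000784). Slc38a9, the arginine sensor and carrier of the lysosome that acts on mTORC1, had 9.96, 10.21 and 10.86 in the adult against 8.2, 8.31 and 8.66 at E10.5 (1.95 ± 0.18, adjusted p = 7.85e-09). A probe of it detected on 22 arrays fell by 0.67 on the log2 scale over the same span (adjusted p = 0.00129) and another rose by 1.45, so that the direction held for 2 of its 3 probes. Slc43a1 (LAT3), a sodium-independent carrier of branched-chain amino acids, had 7.07, 7.09 and 6.97 at E12.5 against 8.45, 8.43 and 8.43 at E10.5 (-1.39 ± 0.17, adjusted p = 9.57e-06), and its second probe fell further (-1.9). Its relative Slc43a2 (LAT4) had 7.52, 7.01 and 7.21 in the adult against 6.76, 6.23 and 5.87 at E10.5 (0.96 ± 0.37, adjusted p = 0.0267). Slc66a1, which exports cationic amino acids from the lysosome, had 8.54, 8.57 and 8.45 in the adult against 9.46, 9.92 and 9.76 at P0 (-1.2 ± 0.15, adjusted p = 1.82e-06). Slc6a6, the taurine carrier, was called in 0 of the embryonic comparisons and lower in the adult than at P0 (-0.61 ± 0.14, adjusted p = 0.00111) with overlapping arrays (12.79, 13.13 and 12.52 in the adult against 13.12, 13.57 and 13.58 at P0).

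**Figure D4:**
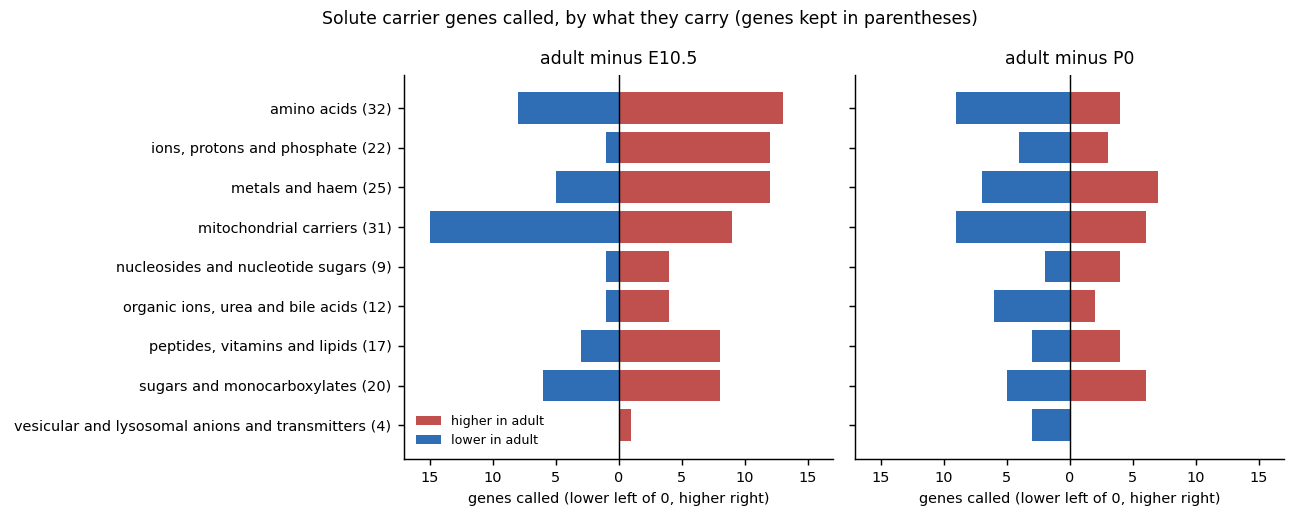
Number of solute carrier genes called (x axis) as higher in the adult (right of 0) or lower (left of 0), against E10.5 microglia (left panel) and against P0 (right panel), by what they carry (y axis, genes kept in parentheses). Ion carriers stand at 12 higher and 1 lower in the adult against E10.5, and mitochondrial carriers at 9 higher and 15 lower. Of all genes, 30.6% were higher and 35.6% lower in that comparison.

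Among the carriers of organic ions, urea and bile acids, Slc22a5, Slc22a17 and Slc10a3 were higher in the adult than at E10.5. Slc22a5, the carnitine carrier OCTN2, rose gradually, with 10.32, 10.34 and 10.14 in the adult against 9.24, 9.37 and 9.52 at E10.5 (0.89 ± 0.12, adjusted p = 2.56e-06), and was called in 0 of the neighbouring comparisons. Slc22a17, the receptor for lipocalin-2, had 8.46, 8.78 and 9.26 in the adult against 6.23, 5.84 and 6.69 at E10.5 (2.58 ± 0.28, adjusted p = 7.31e-08). Slc10a3, whose substrate is unknown, took a similar course, with 11.12, 11.16 and 11.32 in the adult against 9.84, 9.8 and 9.71 at E10.5 (1.41 ± 0.12, adjusted p = 1.9e-09). Slc14a1, the urea carrier of red cells and astrocytes, had means of 5.91 in YSM and 5.77, 7.61, 8.91, 7.86, 7.73, 7.68 and 5.27 from E10.5 to the adult. At E14.5 its arrays stood together at 8.78, 8.97 and 8.98, while E18.5 and P0 were spread (7.01, 7.06 and 9.12, then 8.76, 8.14 and 6.15). It was at least 2.39-fold higher at E12.5 than at E10.5 (adjusted p = 0.0129) and at least 2.9-fold lower in the adult than at P0 (adjusted p = 0.00086). Slc10a6, a carrier of sulphated steroids, was not above background in the adult (4.79, 5.05 and 4.91) against 8.22, 6.89 and 6.89 at P0, at least 2.27-fold lower (adjusted p = 4.72e-05).

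Of the anion carriers, Slc17a5 (sialin), which exports sialic acid from the lysosome, followed the arch of Slc27a1. It had 9.46, 9.16 and 9.44 at E12.5 against 8.22, 8.37 and 8.59 at E10.5 (0.96 ± 0.19, adjusted p = 0.000989), and 8.42, 8.77 and 9.22 in the adult against 9.88, 9.96 and 9.95 at P0 (-1.13 ± 0.19, adjusted p = 7.4e-05). Slc17a9, the vesicular nucleotide carrier that loads ATP, had 7.63, 7.68 and 7.9 at E16.5 against 7.28, 7.03 and 6.92 at E14.5 (0.66 ± 0.19, adjusted p = 0.0129) and 7.32, 7.18 and 7.37 in E10.5 microglia against 7.78, 7.83, 8.15 and 8.09 in YSM (-0.67 ± 0.18, adjusted p = 0.0125). The groups were apart at each of these steps.

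Several members were high where transcripts of other cells were high. Slc7a9, the cystine carrier of kidney and gut epithelium, had 4.61, 4.5 and 5.02 in E10.5 microglia against 4.72, 9.3, 6.61 and 7.32 on YSM arrays 1 to 4. Slc23a3, an orphan relative of the vitamin C carriers, had 4.68, 4.8 and 5.59 in E10.5 microglia against 4.83, 9.1, 7.03 and 7.44 in YSM. Slc13a4, a sulphate carrier, had 4.64, 4.53 and 5.52 in E10.5 microglia against 5.05, 9.79, 7.66 and 8.18 in YSM. Each was lowest on YSM array 1 and highest on array 2, the order of the endoderm list (5.71, 10.67, 8.35 and 8.92), of which 10 of 11 genes were lower in E10.5 microglia. Slc38a5, a glutamine carrier, was also lowest on array 1, with 4.68, 4.7 and 5.91 in E10.5 microglia against 5.23, 8.34, 8.44 and 8.84 in YSM. All 4 were called lower in E10.5 microglia (adjusted p = 0.0107, 0.0133, 0.0107 and 0.0168), with overlap, at least 1.56-, 1.68-, 2.5- and 2.57-fold. Without YSM arrays 2, 3 and 4 this comparison called 4 members, 2 higher and 2 lower, in place of 45, and 125 genes higher and 72 lower in all. That leaves 1 YSM array, assumed to vary like the other groups, and the members' median difference was then -0.13, against -0.17 with all YSM arrays, so that the lost calls cannot be told apart from the loss of replicates. Slc7a9 was detected on 3 YSM arrays and on no other, so that for it a difference was a condition of entry. Their part in the 34 members lower in E10.5 microglia was not tested beyond this.

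**Figure D5:**
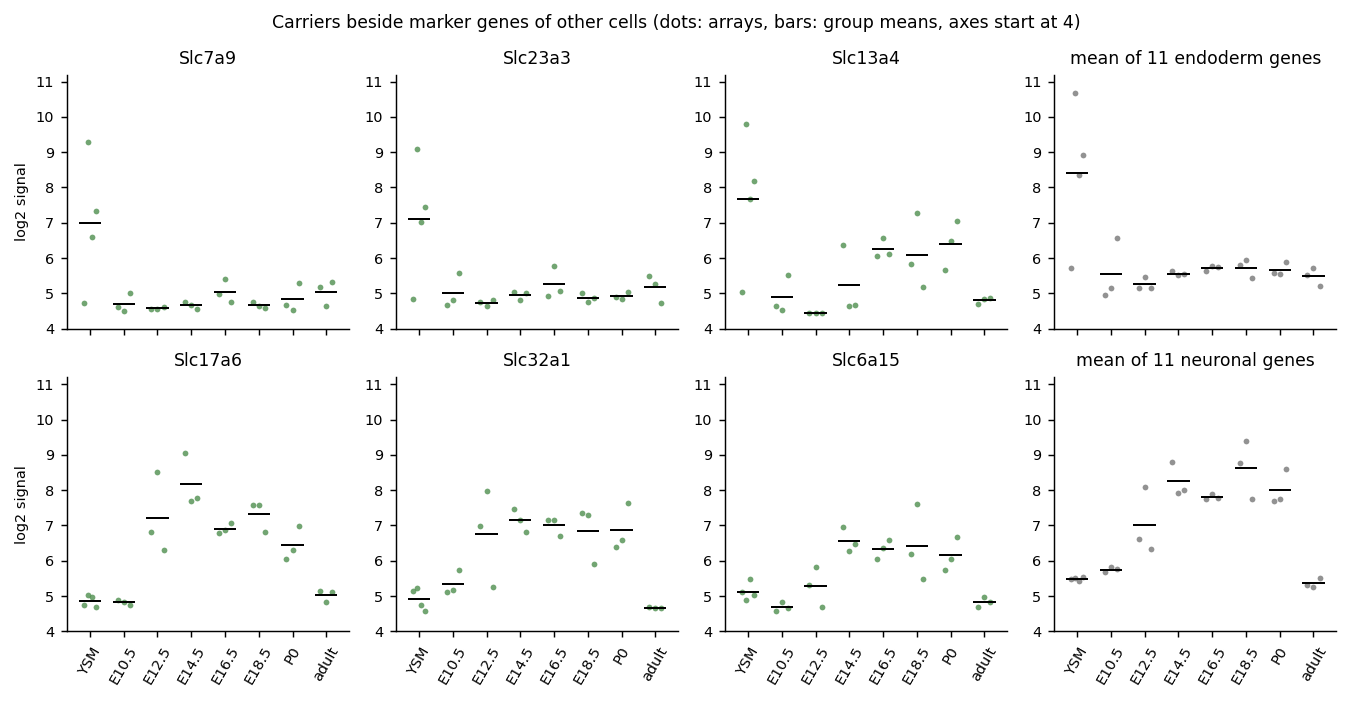
Log2 signal (y axis, all panels from 4) by stage (x axis) of 3 carriers beside the mean of 11 yolk sac endoderm genes (top row) and of 3 carriers beside the mean of 11 neuronal genes (bottom row). Dots are arrays and bars are group means. YSM array 2 is the highest in the whole top row, and the bottom row is high from E12.5 to P0 and low in YSM, at E10.5 and in the adult.

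The vesicular carriers of neurons behaved in the same way from E12.5 to P0. Slc17a6 (VGLUT2), which fills vesicles with glutamate, had 6.82, 8.52 and 6.3 at E12.5, where the neuronal list stood at 6.63, 8.08 and 6.33, against 4.9, 4.82 and 4.75 at E10.5, where it was not above background, at least 1.82-fold (adjusted p = 0.000203). Slc32a1 (VGAT), which fills vesicles with GABA and glycine, had 6.99, 7.99 and 5.26 at E12.5 against 5.11, 5.16 and 5.75 at E10.5, at least 1.32-fold (adjusted p = 0.0333) with overlap. In the adult, where the neuronal list was 5.27 to 5.51, Slc17a6 (5.13, 4.83 and 5.11) and Slc32a1 (4.68, 4.66 and 4.66) were not above background. Slc6a15, a neuronal carrier of neutral amino acids, and Slc29a4, a monoamine carrier, were highest on E18.5 array 2 (7.61 and 7.21), which held the highest neuronal level (9.39). Slc17a6 and Slc32a1 define excitatory and inhibitory neurons, and the part of such cells or their RNA in these values was not tested.

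Some carriers known from glia and meninges were lower in the adult than at P0. Slc4a4, the sodium-bicarbonate cotransporter of astrocytes, had 6.57, 5.96 and 5.75 in the adult against 6.83, 7.51 and 7.48 at P0 (-1.18 ± 0.38, adjusted p = 0.0136). Slc6a11 (GAT3), an astrocyte GABA carrier, had 4.88, 4.9 and 4.93 in the adult against 6.1, 6.05 and 5.1 at P0. It was called lower in the adult (adjusted p = 0.0104), but was not above background there and was detected on 2 of the P0 arrays, so that no fold is given. Slc25a18, a mitochondrial glutamate carrier of astrocytes, had 5.07, 5.07 and 5.44 in the adult against 7.49, 7.93 and 8.07 at P0, at least 3.22-fold lower (adjusted p = 2.6e-07), but also 7.19, 7.04 and 7.45 at E10.5. It was the 1 member called higher at E18.5 against E16.5, with 6.66, 8.2 and 6.81 at E18.5 and 5.8, 5.89 and 5.85 at E16.5 (1.37 ± 0.29, adjusted p = 0.0176). The mean of 10 glial genes was 6.33 to 7.05 up to E16.5, 7.1 to 8 at E18.5, 7.68 to 7.78 at P0 and 5.59 to 5.91 in the adult, and its part in these 3 results was not tested. Slc6a13 (GAT2), a carrier of GABA and taurine found in meninges, had 4.46, 4.68 and 4.49 in the adult against 6.05, 7.19 and 7.37 at P0, at least 1.65-fold lower (adjusted p = 0.000325), and 7.54, 8.03, 8.02 and 8.57 in YSM. Slc22a6, an organic anion carrier, had 4.63, 4.98 and 4.68 in the adult against 5.93, 6.29 and 6.67 at P0, at least 1.11-fold lower (adjusted p = 0.00542). A fibroblast list of 6 measured genes stood at 4.88 to 5.13 in the adult and 5.48 to 6.85 from E12.5 to P0. At E10.5 the list stood at 5.09 to 5.21, and in YSM at 5.27 to 8.82. Slc6a13 was at least 1.69-fold lower at E12.5 than at E10.5 (adjusted p = 0.00145), where 0 of the 6 list genes were called. The list's part in the levels of Slc6a13 and Slc22a6 was not tested.

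Of 24 measured carriers and partner proteins with other names, 7 were higher and 7 lower in the adult than at E10.5 (background 30.6% and 35.6%). Slco2b1, an organic anion carrier, rose by 2.18 ± 0.1 on the log2 scale (adjusted p = 1.69e-13), and Ctns, which exports cystine from the lysosome, by 1.39 ± 0.1 (adjusted p = 1.51e-10). Emb, a chaperone of monocarboxylate carriers, fell by 7.25 ± 0.36 on the log2 scale (means of 6.08 in the adult, detected on 2 arrays, and 13.33 at E10.5, adjusted p = 4.79e-13), and Sfxn1, the mitochondrial serine carrier, fell by 1.64 ± 0.11 (adjusted p = 4.7e-11). The 5 name matches that are no carriers included Slc9a3r2, a scaffold protein of membrane carriers, with 6.66, 6.03 and 6.61 in the adult against 7.75, 7.98 and 7.6 at P0 (-1.35 ± 0.24, adjusted p = 0.00012).

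Of 57 members with more than 1 kept probe, the members named by rule had 50 results from other probes, of which 43 ran in the direction of the main probe and 22 were also called. Besides those given above, the call of the main probe was not reached by another probe for Slc35a3 (0.3, adjusted p = 0.424), Slc16a13 (-0.84, adjusted p = 0.0595) and Slc38a1 (0.2 and 0.59) in E10.5 microglia against YSM, and for Slc8a1 (0.49 and 0.31), Slc44a1 (0.16), Slc14a1 (1.08 and 0.94) and Slc37a2 (-0.03) at E12.5 against E10.5. The same held for Slc2a8 (0.35) at E16.5 against E14.5 and for Slc6a6 (-0.15) and Slc7a11 (0.2) in the adult against P0. Leaving out the YSM arrays or the E10.5 arrays in turn, the E10.5 against YSM count of 45 ranged between 24 without E10.5 array 1 and 50 without YSM array 1.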

How the data were processed

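Cells from yolk sac and brain were hybridised to Illumina Mouse WG-6 v2 arrays by the authors after mirVana extraction and TargetAmp-Nano labelling of 50 ng of total RNA. The deposited intensity values are GenomeStudio probe signals on a linear scale with a detection p-value per probe, per the file headers, neither background-subtracted nor normalized. The authors also deposited intensities quantile-normalized with lumi, still linear, and the series' value table held the same numbers in all 25 distinct columns. GenomeStudio and lumi come from the submitters' processing notes, with versions not given in the sources used here. Bead errors and bead numbers (56 columns) were not used. Columns were placed by the stage in their names, with replicate numbers only in the value table.

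Here the signals were corrected with limma's neqc (limma 3.58.1, R 4.3.3; detection p-values in place of control probes, offset 16), quantile-normalized and put on the log2 scale. Probes with a detection p-value under 0.01 on at least 3 arrays and 1 gene symbol in the platform annotation were kept (16741), and each gene was read from its probe of highest mean (10630 genes). lmFit and eBayes were run over all 8 groups (17 residual degrees of freedom), with Benjamini-Hochberg adjustment over all genes and a threshold of 0.05. The arrays' number limits the precision, with a median SE of 0.188 to 0.201 on the log2 scale.

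On simulated data with 200 of 10630 genes changed, a log2 change of 2 was recovered for 89% of the changed genes at E18.5 against E16.5 and for 99% at E14.5 against E12.5, the lowest and highest share. Smaller changes, such as many of those above, are not covered by these shares. Each simulated gene had the same normal spread in all groups, which the YSM arrays need not have. Other settings were another scaling, offset, filter, probe choice and variance model, the authors' normalized values, fits on the compared groups, and arrays left out.

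The members and lists were chosen with earlier results of these data known. Named members were, in each comparison, the called ones with the largest rises and falls among those whose groups do not overlap (3 each, or 6 in the comparisons with most calls), the 4 of each transport class with the smallest F-test p, and a list of members followed for their role. Chosen after their values were seen were Slc13a4, Slc16a6, Slc16a10, Slc19a1, Slc22a6, Slc23a3, Slc25a3, Slc25a11, Slc25a15, Slc25a26, Slc27a4, Slc29a4, Slc38a5, Slc39a8, Slc44a2, Slc4a4, Slc50a1, Slc5a6, Slc66a1, Slc6a9, Slc6a11, Slc6a15, Slc7a9, Slc9a3r2 and the fibroblast list.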

Additional observations from a re-analysis of the deposited data

Results flagged for a closer look

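In 6 of the 76 named members 1 of the 4 YSM arrays stood far from the other 3, by a gap to the nearest array, as a share of the group's range, over Dixon's critical value, where chance alone marks about 1 group in 20. Slc2a6, the lysosomal glucose carrier, had the widest gap, 0.991 of the range, with 8.57 on YSM array 2 and 9.9 on the nearest other array. YSM array 2 was also low for Slc15a3 (0.898 of the range, 10.82 against 11.27 on the nearest array) and for Slc6a6 (0.836, 12.79 against 12.98), and it was the array highest in endoderm transcripts (mean log2 signal of 10.67). The iron importer of mitochondria, Slc25a37, was low on YSM array 1 (0.868, 9.49 against 10.22), the array lowest in erythroid transcripts (7.32) and in endoderm transcripts (5.71). The pyrimidine nucleotide carrier Slc25a36 was low on YSM array 3 (0.831, 7.01 against 7.7), and the ferrous iron importer Slc11a2 was high on YSM array 4 (0.83, 8.95 against 8.64).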

How the results depend on the processing

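Depth limits the members near background, whose differences are compressed or only bounded. Of 87 called results for named members, 54 kept their call and direction under every setting, and 33 lost the call or changed sign under at least 1. Of these, 5 changed sign under another probe, the cause of which was not tested: -0.11 for Slc11a1 in the adult against P0 (also with the probe of largest range), -0.26 and -0.12 for Slc38a2 and 0.14 for Slc7a6os at E16.5 against E14.5, -0.03 for Slc37a2 at E12.5 against E10.5, and -0.79 for Slc38a9 in the adult against P0 (adjusted p = 0.000566). The counts of called members stayed within 1.5 times, except as follows. In E10.5 microglia against YSM 45 members became 15 with only the compared groups in the fit (7 arrays) and 4 without YSM arrays 2, 3 and 4, which leaves 1 YSM array. At E14.5 against E12.5 the 1 call became 2 with the replicate block, 2 with only the compared groups, 2 without the 3 YSM arrays and 4 without the 4 arrays highest in neuronal transcripts. At E18.5 against E16.5 the 3 calls became 1 without a detection filter, with eBayes's trend, with the replicate block and without 2 arrays with neutrophil transcripts, and 0 with only the compared groups. With each of the 25 arrays left out in turn, counts ranged from 162 to 166 in the F test, 24 to 50 in E10.5 microglia against YSM (27 without YSM 3, 28 without E10.5 array 2), 39 to 58, 1 to 3, 36 to 58, 0 to 4 and 0 to 0 in the following steps, 78 to 98 in the adult against P0 and 101 to 120 in the adult against E10.5. The replicate numbers do not pair the samples (r of deviations from the group means -0.634 to 0.469 over 77 pairs, 15 over 0.1), and the block gave 40, 58, 59, 98 and 100 calls in the comparisons with most. The alternatives that leave out YSM, neuronal or neutrophil-rich arrays were chosen after seeing the data.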
